A study of Mus musculus with 3 samples.

Results

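The 6 genes described here were S100a4, S100a6, S100a10 and S100a11, which encode S100 proteins, and Lgals1 and Lgals3, which encode galectins. They were taken by name from a count table of 50507 genes, of which 30778 had a count in the libraries used. Their RNA was measured by CEL-Seq2, a method that counts transcripts at their 3′ end through a unique molecular identifier, in bulk cultures of mouse embryonic fibroblasts during the first 6 days of reprogramming to pluripotency. The study asked how chromatin and transcription regulators affect this phase, by silencing them with pooled siRNAs. The primary fibroblasts were wild-type, of the BL6 strain and at passage 2, and had all been transduced, at an MOI of 1, with lentiviruses carrying rtTA and tet-STEMCCA, a doxycycline-inducible cassette that expresses c-Myc, Klf4, Oct4 and Sox2. Cells of the time course (Day00 to Day06, 3 libraries a day) were replated without transfection. The other cells were first reverse transfected, with 40 nM of siRNAs against 1 of 33 genes (3 libraries each, 2 for siMtf1), with non-targeting siRNA (nt, 3 libraries) or as Mock (5 libraries, named so in the count table, 2 each in replicates 1 and 2 and 1 in replicate 3), and were read at reprogramming day 6 per the methods of the study. Transfected cells were replated 24 hours after transfection, before induction. Induction was with 2 ug/mL doxycycline in medium with LIF, ascorbic acid (50 ug/mL), chiron (3 uM) and an inhibitor of Alk5 (0.25 uM).

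S100 proteins are small EF-hand proteins that mostly work as dimers, and most of them bind calcium and then a target protein. S100a4 binds nonmuscle myosin and is widely used as a fibroblast marker, S100a6 (calcyclin) binds Cacybp and Sugt1, S100a10 (p11) does not respond to calcium and forms a complex with annexin A2, and S100a11 binds annexin A1. Galectins bind β-galactosides on cell surface and matrix glycoproteins: Lgals1 forms homodimers, while Lgals3 joins a sugar-binding domain to a long N-terminal tail and is abundant in epithelia and macrophages.

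All 6 genes lie on the plus strand of GRCm38 in the GENCODE vM21 annotation. The S100 genes sit on chromosome 3, where S100a4 (chr3:90603771-90606045) is 6836 bases from S100a6 (chr3:90612882-90624181) and S100a11 (chr3:93520488-93526287) is 28792 bases from S100a10 (chr3:93555080-93564643). Lgals1 is at chr15:78926725-78930465 and Lgals3 at chr14:47367751-47386160. Coding sequences of the S100 genes were 50.3% to 57.8% identical to each other, and those of Lgals1 and Lgals3 33.7%. Of the 6 genes, 4 matched the RefSeq promoter table (GRCm38.p6): S100a4, S100a6, S100a11 and Lgals3. The 250 bases before the transcript start are shown for 3 of them, S100a4, S100a6 and Lgals3, since these genes carried most of the called differences over the time course and between siRNAs (S100a4 at chr3:90603520-90603769, S100a6 at chr3:90612644-90612893, Lgals3 at chr14:47373610-47373859, plus strand, 5′ to 3′). Capitals mark matches on either strand to TATAAA, to CCAAT, or to CACCC, the short core of sites bound by the KLF family, of which Klf4 is in the cassette.
S100a4: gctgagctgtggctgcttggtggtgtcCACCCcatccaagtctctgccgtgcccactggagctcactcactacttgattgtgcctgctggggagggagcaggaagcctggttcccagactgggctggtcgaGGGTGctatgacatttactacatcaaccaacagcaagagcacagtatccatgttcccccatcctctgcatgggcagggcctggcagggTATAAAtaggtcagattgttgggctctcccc
S100a6: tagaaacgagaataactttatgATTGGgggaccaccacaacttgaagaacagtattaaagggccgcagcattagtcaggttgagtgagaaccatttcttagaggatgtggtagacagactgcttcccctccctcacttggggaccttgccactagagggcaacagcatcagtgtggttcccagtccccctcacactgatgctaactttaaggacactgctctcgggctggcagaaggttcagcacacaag
Lgals3: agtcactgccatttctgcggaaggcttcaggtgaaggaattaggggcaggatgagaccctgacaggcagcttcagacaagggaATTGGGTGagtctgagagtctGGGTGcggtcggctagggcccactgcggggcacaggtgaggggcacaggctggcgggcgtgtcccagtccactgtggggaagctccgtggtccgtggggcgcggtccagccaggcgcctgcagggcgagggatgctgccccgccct

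The S100a4 window held TATAAA, starting 31 bases before the transcript start, and 2 matches to CACCC. The S100a6 window held a single CCAAT match, 228 bases upstream, and the Lgals3 window held 1 CCAAT match that overlaps the first of its 2 CACCC matches. Neither CACGTG, the E-box bound by MYC, nor ATGCAAAT, the octamer bound by OCT4, was in these 3 windows, and the S100a11 window held 1 CACGTG and 2 matches to TGANTCA, the AP-1 motif. Among 32851 promoters of the same length, both strands searched, TATAAA was in 12.4%, CCAAT in 33.8%, CACCC in 52.0%, CACGTG in 6.02%, TGANTCA in 6.75% and ATGCAAAT in 1.60%.

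The 127 libraries used held 29656 to 235292 counts, with median depths of 64227, 63122 and 127079 in replicates 1, 2 and 3. Per the methods of the study the siRNA transfections were done in triplicate and the replicates were sequenced independently. The sources used here do not say whether they came from separate fibroblast preparations, so the p-values measure the spread between these libraries, which may be in part technical. Over all libraries S100a6 had 35522 counts, Lgals1 6587, Lgals3 3793, S100a4 3180, S100a10 1972 and S100a11 476, and S100a11 was at 0 in 9 libraries, where a count of 0 allows up to 3. Reads of S100a11 may be shared with 2 near-identical genes, Gm12854 and Gm7665, which held 71 counts, so its values are uncertain, while Gm42674, which overlaps S100a4, had 0 counts. Fibroblast markers were present (all 14 listed genes had counts at Day00). The siRNA targets were too sparse to check most labels: the target's count was below that expected from the other transfected libraries in 23 of 33 siRNAs, but 25 targets had an expected count under 10, and the exact 95% Poisson interval of the ratio lay below 1 for none. For the libraries labelled siHdac1 it lay above 1 (Hdac1 at 1.83 times its expected count, 1.09 to 2.89, counting error only). The targets with the highest expected counts had intervals that included 1. They were Hat1 (ratio 1.1, 0.902 to 1.33), Set (0.808, 0.614 to 1.04), Eny2 (0.877, 0.611 to 1.22) and Apex1 (0.919, 0.62 to 1.31). In bulk RNA, fewer cells of a type and less RNA per cell cannot be told apart.

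Over the time course Lgals3 rose within 1 day of induction and stayed high, S100a4 was lower on most later days than at Day00, and S100a6 was lower from Day03 to Day05. Levels are given in CPM, the standard depth-scaled count, here relative to the TMM-scaled total of the 3013 genes that passed the low-count filter, and a gene was called when its edgeR adjusted p was under 0.05. At Day06 2 of the 6 genes were called against Day00 (background 22.2% of tested genes). By the test across all 7 days 4 of the 6 genes were called (background 42.5% of tested genes): Lgals3, S100a4, S100a6 and S100a10. Of the 36 differences of a later day from Day00, 13 were called, 6 higher and 7 lower (36.1%, beside 17.5% over all tested genes, of which 8.19% higher and 9.33% lower). The background was 9.89% at Day01, 11.6% at Day02, 10.9% at Day03, 18.7% at Day04 and 31.9% at Day05. These comparisons share the Day00 libraries. Of the 36 differences between a day and the day before it, 7 were called, 4 higher and 3 lower (19.4%, beside 7.02% over all tested genes, of which 3.34% higher and 3.68% lower).

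Lgals3 was at 103, 42.3 and 49.7 CPM in the 3 Day00 libraries, from 13 counts in all, and at 390, 489 and 262 CPM at Day01. Every later library lay above every Day00 library. The log2 fold change against Day00 was 2.55 ± 0.39 (SE) at Day01 (edgeR adjusted p = 7.74e-08), a 5.85-fold higher level, and 2.93 ± 0.37 at Day06 (adjusted p = 7.02e-12), where the libraries held 519, 488 and 436 CPM. The path was not steady: a mean of 486 ± 135 CPM at Day03 (SD, n = 3) was followed by 278 ± 28.9 at Day04 and 574 ± 76.2 at Day05. The fall from Day03 to Day04 was called (log2 fold change -0.79 ± 0.25, adjusted p = 0.0204, 3 of 3 replicates) and was lost without any of the 3 replicates (adjusted p = 0.0727, 0.312 and 0.0810). The rise from Day04 to Day05 (1.02 ± 0.23, adjusted p = 0.00168) held without each replicate but was lost on the deposited log2 values. Every difference of Lgals3 from Day00 was called in each alternative fit run. Macrophages also express Lgals3. The 13 macrophage and myeloid markers summed to 132 to 246 CPM across the Day00 libraries and 27.3 to 89.0 CPM across those of Day06, with 9 of 13 at 0 on each day and C1qa and S100a8 at 0 in every library. Lyz2 alone of these passed the filter, with 31 counts at Day00 and 10 at Day06. It was called lower at Day01 (log2 fold change -2.60, edgeR adjusted p = 0.0164) and at Day06 (-1.87, adjusted p = 0.0349).

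S100a4 was at 554, 339 and 1092 CPM at Day00, 229, 159 and 353 CPM at Day01 and 267, 235 and 293 CPM at Day06. The replicate 3 library was the highest of the 3 at Day00 and on every later day, and the Day06 libraries all lay below those of Day00. S100a4 was lower by 1.46 ± 0.27 on the log2 scale at Day01 (log2 fold change -1.46, adjusted p = 8.80e-06) and lower again at Day04, Day05 and Day06 (-0.85, -1.01 and -1.42; adjusted p = 0.00277, 0.000226 and 1.75e-06). In between, at Day02 and Day03, the differences were -0.54 and -0.10 and were not called, and the rise from Day01 to Day02 was called (0.92 ± 0.27, adjusted p = 0.0248) but lost without replicate 2 or 3 (adjusted p = 0.0940 and 0.440). The fall from Day03 to Day04 was called as well (-0.75 ± 0.23, adjusted p = 0.0161, lower in 2 of 3 replicates) and lost without replicate 1 or 3 (0.233 and 0.287). Without replicate 3 the Day04, Day05 and Day06 differences were no longer called (adjusted p = 0.275, 0.120 and 0.103), and on the deposited log2 values none of the S100a4 differences was (0.0540 at Day06).

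S100a6 was at 5665, 4891 and 5827 CPM at Day00 and at 3655, 2945 and 3774 CPM at Day03, with no overlap between these days. The difference was -0.66 ± 0.14 (adjusted p = 0.000100) at Day03, -0.41 at Day04 and -0.50 at Day05 (adjusted p = 0.0176 and 0.00153), and at Day06 the level was 5172 ± 1241 CPM, -0.09 ± 0.13 from Day00 (adjusted p = 0.721). The replicate 1 library, at 6602 CPM, stood above the other 2 at Day06 (4374 and 4540 CPM). The rise from Day05 to Day06 (0.42 ± 0.13, adjusted p = 0.0316) was lost without any of the 3 replicates (adjusted p = 0.338, 0.278 and 0.137), as was the Day04 difference (0.273, 0.185 and 0.0579), and the Day05 difference was lost without replicate 2 (0.129).

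S100a10 was at 82.1, 127 and 82.8 CPM at Day00, from 20 counts, and at 237, 108 and 130 CPM at Day06, so that the groups overlapped. It passed the test across days (adjusted p = 0.0298) but no single day was called against Day00 (0.74 ± 0.42 at Day06, adjusted p = 0.222), and the test across days was lost without each replicate in turn (0.0739, 0.0549 and 0.200) and in every other alternative (0.0546 to 0.130) but the one with all libraries (0.0471). S100a11 (81.8 ± 22.5 CPM at Day00, 65.5 ± 10.2 at Day06) and Lgals1 (764 ± 148 and 633 ± 158 CPM) were not called on any day. Their Day06 differences were -0.19 ± 0.59 and -0.25 ± 0.20.

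**Figure D1:**
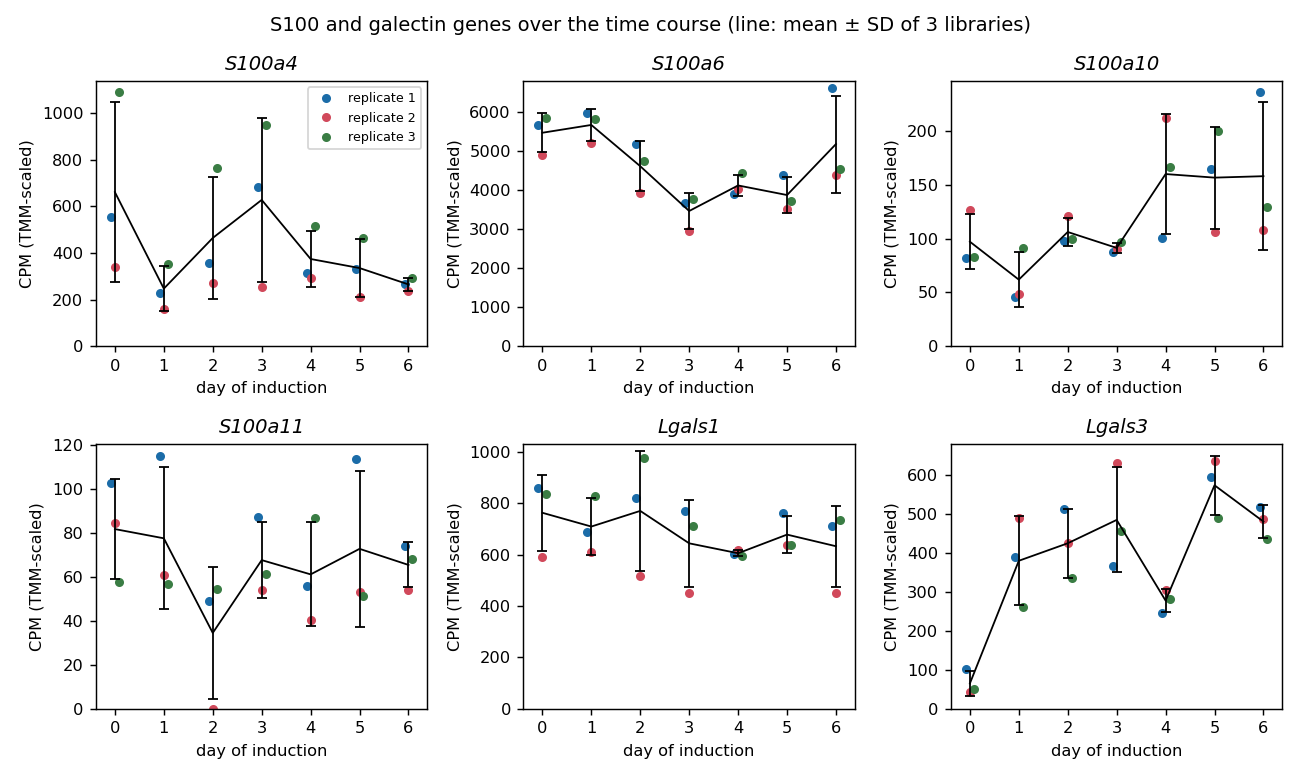
Level of each gene in CPM (y axis, from 0) in each library of the time course by day of induction (x axis). Points are libraries coloured by replicate and the line joins means with bars of ±1 SD of 3 libraries. Lgals3 goes from 64.9 CPM on average at Day00 to 481 at Day06, and S100a4 from 662 to 265.

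Of 13 other S100 genes 11 had a count and of 8 other galectin genes 6. Like S100a11, none of them passed the filter, and none was called at Day06 against Day00 in the fit that kept them. S100a16 (502 counts in all libraries), S100a1 (434) and Lgals7 (277), named after their values were seen, had the most. Among 15 partners and targets of S100 proteins 8 passed the filter, and 4 of these fell and 0 rose at Day06 against Day00, with a median log2 fold change of -0.90 beside 0.05 over all 3013 tested genes, of which 347 fell and 321 rose (22.2% called). They were the calcium-dependent membrane binders Anxa5 (-1.81), Anxa6 (-1.25) and Anxa2 (-1.04), the last of which binds S100a10, and Myh9 (-1.05), the myosin heavy chain that S100a4 binds (adjusted p = 9.03e-08, 0.0183, 0.00120 and 0.0258). Among 13 galectin ligands and partners 5 fell and 0 rose, 4 of them among the 10 that passed the filter (median -0.85). Lgals3bp, a secreted glycoprotein that Lgals3 binds, went from 212 ± 111 CPM to 23.1 ± 19.3 (log2 fold change -3.21 ± 0.67, adjusted p = 4.80e-05), fibronectin (Fn1) fell by 2.89, Nrp1 by 2.48 and the integrin subunit Itgb1 by 1.77 on the log2 scale.

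Fibroblast markers moved with the time course, from a summed 7205 to 8681 CPM in the Day00 libraries to 3055 to 4006 in those of Day06. At Day06 8 of 14 fell, among them Postn (-4.67), and Dcn and Lum rose (3.18 and 3.67), beside 22.2% called over all tested genes. Summed epithelial markers moved from 20.5 to 24.8 CPM at Day00 to 74.2 to 253 at Day06, where Cdh1 and Epcam, at 0 at Day00, had 13 and 9 counts. Early pluripotency markers moved from 8.28 to 42.3 CPM to 109 to 127, with Nanog, Esrrb, Zfp42 and Utf1 at 0 at Day06. Summed endothelial markers were at 0 to 20.5 and 14.8 to 34.1 CPM, with 6 of 7 at 0 on both days. The part of these cells in the differences of the S100 and galectin genes was not tested.

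Transfection with nt was compared with the untransfected Day06 cells and with Mock. Cells of nt and Day06 also differed in schedule, by the 24 hours between transfection and replating, so transfection and schedule cannot be told apart. Against Day06, 1 of the 6 genes was called (background 26.6%): S100a6 was lower in nt (4163, 3275 and 4583 CPM against 6602, 4374 and 4540, overlapping groups, log2 fold change -0.36 ± 0.13, adjusted p = 0.0330, 2 of 3 replicates). This was lost without replicate 1 or 2 (adjusted p = 0.553 and 0.345). Between Mock and nt 0 of 6 were called (background 1.56%), while 3 had an unadjusted p under 0.05 and DESeq2 called 2. S100a10 was at 439, 412, 173, 248 and 328 CPM in Mock against 117, 150 and 188 in nt (1.08 ± 0.32, adjusted p = 0.0558 by edgeR, 0.0214 by DESeq2). S100a4 was at 433 ± 120 CPM (SD, n = 5) in Mock and 263 ± 8.53 (n = 3) in nt (0.85 ± 0.27, adjusted p = 0.0789 by edgeR, 0.0458 by DESeq2). S100a6 was at 3131 ± 344 CPM in Mock and 4007 ± 668 in nt (-0.34 ± 0.13, adjusted p = 0.154 by edgeR, unadjusted p = 0.00730). The same-named Mock libraries of a replicate may not be independent. With those summed, so that Mock had 3 replicates, edgeR again called 0 of 6 (S100a10 1.09, S100a4 0.86 and S100a6 -0.36, adjusted p = 0.0733, 0.0957 and 0.213). The siRNA calls below are against nt. For most calls of the 6 genes values against nt and Mock together are given beside them, and genes of the lists are set against nt only.

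The lists were counted between nt and Day06 too, where 26.6% of all tested genes were called, 470 higher and 332 lower. Of the 8 S100 partners and targets that passed the filter, Sugt1 (1.42), Cacybp (1.25) and Anxa2 (0.74) were higher in nt than at Day06 and Ahnak was lower (-0.89). Sugt1 was at 293 ± 93.6 CPM in nt and 96.7 ± 39.9 at Day06, and Cacybp at 430 ± 54.6 and 161 ± 67.1 (edgeR adjusted p = 0.000756 and 0.000177). Of the 10 galectin ligands and partners 2 were lower in nt, Hras (-1.19) and Cd44 (-0.92), and of the 11 fibroblast markers Col1a1 (-1.39), Col1a2 (-1.24) and Thy1 (-0.80) were lower and Lum (1.53) higher.

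Of the differences of the 6 genes between each of the 33 siRNAs and nt, 15 were called, 7 higher and 8 lower, in 11 of the siRNAs. That was 7.58% of the differences, beside 2.57% over all tested genes (1.29% higher and 1.28% lower). All of them share the nt libraries. S100a6 gave 8 of the 15 calls, S100a10 and Lgals1 3 each and Lgals3 1, and S100a4 and S100a11 none, with 6 and 1 differences at an unadjusted p under 0.05. DESeq2 gave 23 calls and the fit without the replicate block 7, and limma on the deposited log2 values gave 0. The test across all 35 transfected conditions called 5 of the 6 genes, all but S100a11 (background 45.1%). In that test S100a4 was lost with no replicate block (adjusted p = 0.0798) and S100a10 with limma on the deposited log2 values (0.112).

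**Figure D2:**
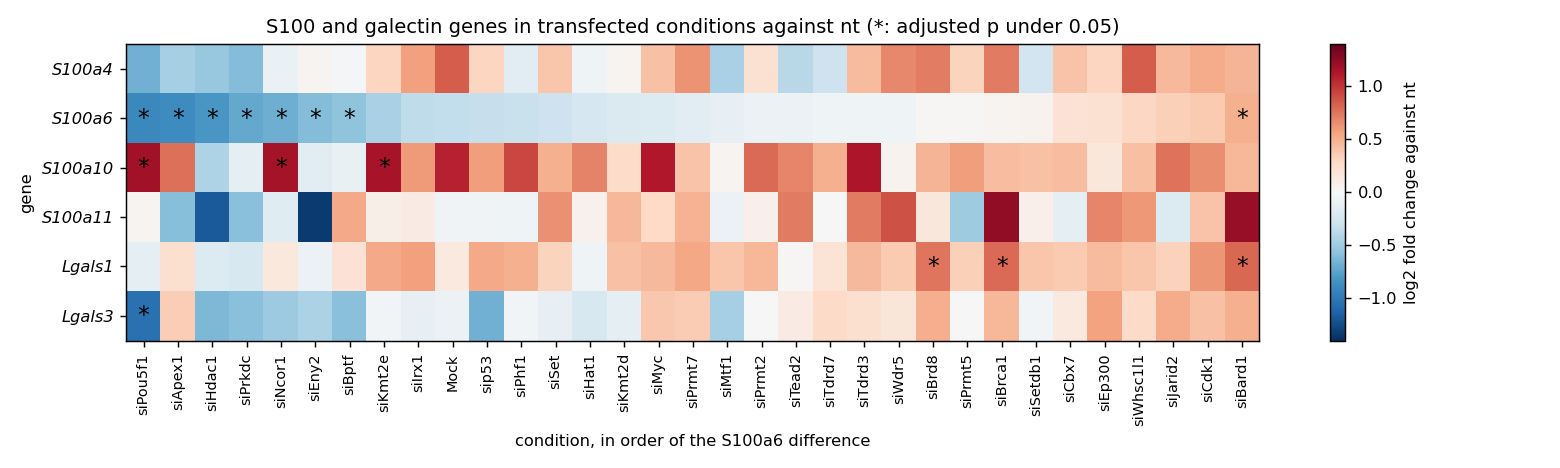
Fitted log2 fold change against nt (colour, red higher and blue lower) of the 6 genes (rows) in Mock and in the siRNAs shown (columns), ordered by the value of S100a6, with a star where the edgeR adjusted p was under 0.05. S100a6 runs from -0.90 (siPou5f1) to 0.50 (siBard1) and its 7 lower calls are the first 7 columns.

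S100a6 had the deepest counts of the 6 genes, with 59 to 1058 in a library, and the widest set of calls. It was at 4163, 3275 and 4583 CPM in nt and fell to 2634, 1750 and 2096 CPM in siPou5f1 (log2 fold change -0.90 ± 0.15, adjusted p = 5.73e-07). In siApex1 it was at 2451, 1786 and 2301 CPM (-0.88 ± 0.15, adjusted p = 3.61e-06). Apex1 is a DNA repair endonuclease. In the libraries labelled siHdac1 it was at 2162, 2013 and 2566 CPM (-0.82 ± 0.15, adjusted p = 0.000100), and in siPrkdc, against the catalytic subunit of DNA-PK, at 2326, 2163 and 2748 (-0.72 ± 0.14, adjusted p = 0.000298). No library of these 4 conditions reached the lowest nt library. The 4 calls held without each replicate in turn, against nt and Mock together (-0.69, -0.67, -0.61 and -0.51) and with either other scaling, and were lost on the deposited log2 values (adjusted p = 0.204, 0.466, 0.181 and 0.189).

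The other lower calls of S100a6 were in siNcor1 (2202, 2533 and 2722 CPM, log2 fold change -0.68 ± 0.14, adjusted p = 0.000338), siEny2 (2924, 2262 and 2698 CPM, -0.61 ± 0.14, adjusted p = 0.00208) and siBptf (2651, 2508 and 2979 CPM, -0.56 ± 0.15, adjusted p = 0.0194). Ncor1 is a co-repressor, Eny2 a subunit of the SAGA complex and Bptf a subunit of the NURF remodeller. The siNcor1 call was lost without replicate 1 or 3 (adjusted p = 0.0511 and 0.0975), the siEny2 call without replicate 2 or 3 (0.0689 and 0.223), and the siBptf call without any of the 3 replicates (0.150, 0.115 and 0.372), against nt and Mock together (0.147) and with RLE scaling or library totals (0.112 and 0.436). Among all tested genes 0.697% were called in siApex1, 1.06% in the libraries labelled siHdac1, 1.76% in siPrkdc, 4.45% in siNcor1, 1.89% in siEny2 and 1.16% in siBptf. The highest mean was in siBard1, at 5318, 5706 and 5991 CPM, all above the nt libraries (0.50 ± 0.13, adjusted p = 0.00545, lost without replicate 2 at 0.285). Against nt and Mock together siNcor1, siEny2 and siBard1 were still called (-0.47, -0.40 and 0.72, adjusted p = 0.0161, 0.0322 and 5.27e-08). Of the 33 fitted differences 22 were below 0 and the median was -0.12.

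Depth and other genes moved with some of these results. Mean depth was 46893 counts in the libraries labelled siHdac1 and 47058 in siBptf, against 99464 in nt, but 100335 in siEny2. Across the 106 transfected libraries the correlation of S100a6 with depth (log2 values) was 0.26, and 0.14 to 0.27 within replicates, and with summed fibroblast markers 0.35 (0.35 to 0.41 within replicates). Summed fibroblast markers were at 2189 to 3131 CPM in nt, 1183 to 1466 in siPou5f1, 2941 to 3316 in siApex1, 2404 to 3071 in the libraries labelled siHdac1, 2975 to 3422 in siPrkdc, 1962 to 2936 in siNcor1, 2499 to 3393 in siEny2 and 1566 to 2203 in siBptf. The part of depth and of these markers in the differences was not tested.

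**Figure D3:**
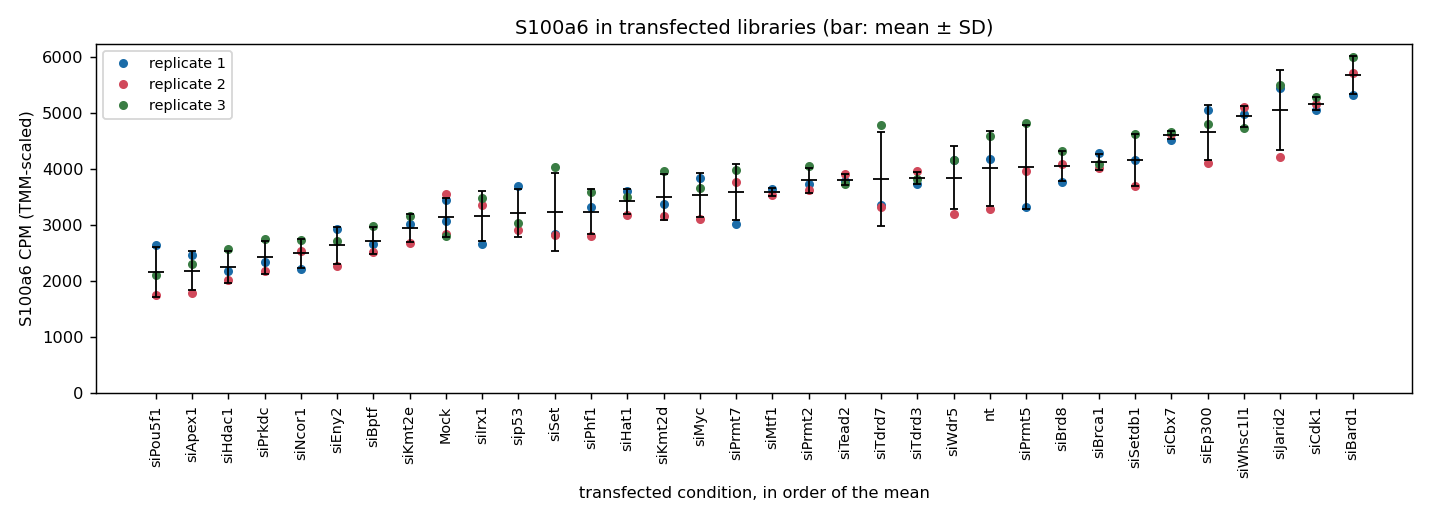
S100a6 in CPM (y axis, from 0) in the transfected libraries shown, by condition in order of the mean (x axis). Points are libraries coloured by replicate and black bars are the mean ±1 SD. Means run from 2160 CPM in siPou5f1 to 5671 in siBard1, with nt at 4007 and Mock at 3131.

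S100a10 was higher than nt, as a call, in siPou5f1, siNcor1 and siKmt2e. It was at 117, 150 and 188 CPM in nt, from 40 counts, and at 360, 284 and 406 CPM in siPou5f1 (log2 fold change 1.18 ± 0.33, adjusted p = 0.0145). It was at 469, 167 and 400 CPM in siNcor1 (1.16 ± 0.33, adjusted p = 0.0183), where 1 library lay within the nt range, and at 326, 296 and 402 CPM in siKmt2e (1.15 ± 0.33, adjusted p = 0.0406), which targets a member of the MLL family (background 1.29%). The means of these 3 conditions were 350, 346 and 342 CPM, and Mock, at 320 ± 111 CPM, overlapped all 3. Against nt and Mock together the values were 0.50, 0.48 and 0.47 and none was called (adjusted p = 0.297, 0.419 and 0.732). The siKmt2e call was also lost without each replicate (0.180, 0.187 and 0.367), and those of siPou5f1 and siNcor1 without replicate 1 (0.145 and 0.255) or 3 (0.141 and 0.187). Over the 33 siRNAs 29 fitted values were above 0 and their median was 0.50, so that nt itself was low among the transfected conditions, at rank 30 of 35.

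**Figure D4:**
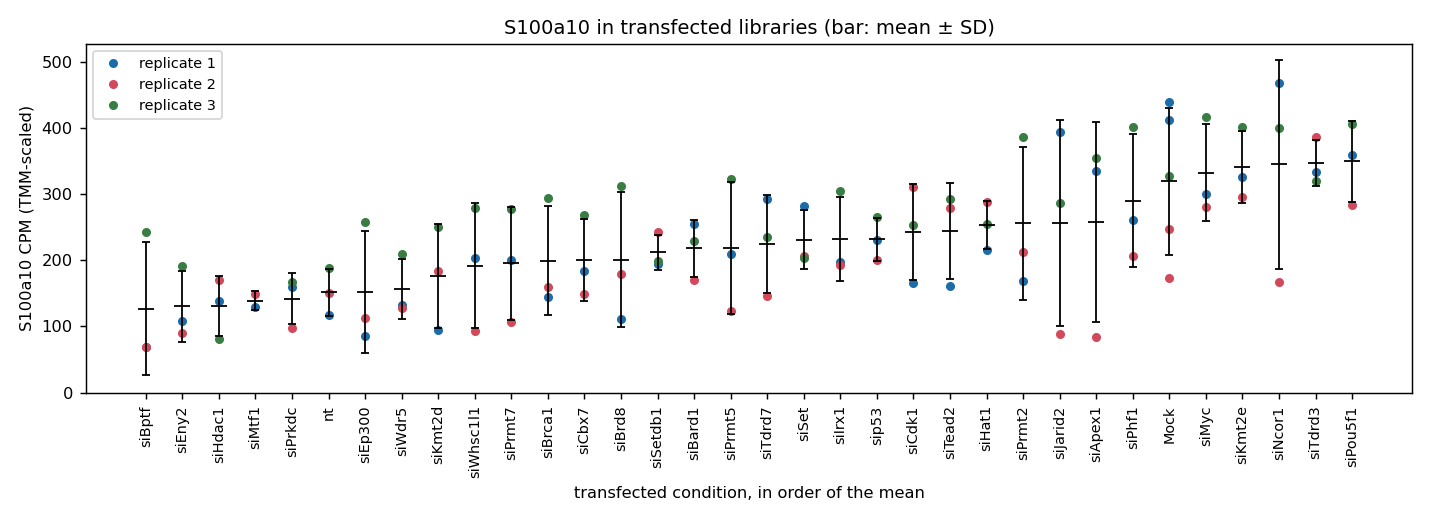
S100a10 in CPM (y axis, from 0) in the transfected libraries shown, by condition in order of the mean (x axis), with points coloured by replicate and black bars for the mean ±1 SD. Means run from 127 CPM in siBptf to 350 in siPou5f1, with nt at 151 and Mock at 320.

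Among the galectins, Lgals1 was higher than nt in siBard1, siBrca1 and siBrd8. In nt it was at 566, 538 and 580 CPM, a narrow range, and in siBard1 at 1006, 805 and 1104 (log2 fold change 0.80 ± 0.19, adjusted p = 0.00180, lost without replicate 3 at 0.129). In siBrca1 it was at 951, 866 and 1084 CPM (0.79 ± 0.20, adjusted p = 0.00901) and in siBrd8, against a bromodomain protein, at 1218, 596 and 1024 (0.75 ± 0.20, adjusted p = 0.0332). The ranges of the 3 conditions did not overlap that of nt (background 0.797% called in siBrd8). Nor did those of many siRNAs in which Lgals1 was not called, among them siApex1, siCdk1, siIrx1 and siPhf1. Each of the siBrca1 and siBrd8 calls was lost without any of the 3 replicates (0.0839, 0.0746 and 0.213, and 0.379, 0.158 and 0.319). Over the 33 siRNAs 28 fitted values of Lgals1 were above 0, with a median of 0.39, and nt was at rank 30 of 35 transfected conditions. Against nt and Mock together the 3 differences were 0.72, 0.71 and 0.66 and were called (adjusted p = 0.000507, 0.00515 and 0.0220). Lgals3 was called only in siPou5f1, at 113, 213 and 237 CPM against 466, 553 and 286 in nt (-1.04 ± 0.31, adjusted p = 0.0212), lost without replicate 1 or 2 (0.346 and 0.220). Against nt and Mock together it was -0.98 (adjusted p = 0.0159). Its highest mean was in siEp300 (619 ± 127 CPM).

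The siRNAs against Wdr5, a core subunit of the MLL histone methyltransferases, and against Brca1 and Bard1, which form a ubiquitin ligase, were the ones the study followed up. In siWdr5 0 of the 6 genes were called (background 27.2%), with 1 at an unadjusted p under 0.05. S100a4 was at 370, 242 and 589 CPM against 266, 269 and 253 in nt (0.67 ± 0.27, adjusted p = 0.0532). DESeq2 called S100a4 (0.82, adjusted p = 0.0318) and Lgals1 (0.55, adjusted p = 0.0304), as did edgeR with RLE scaling (0.0130 and 0.0286) or with library totals (0.0204 and 0.0476). In siBrca1 1 gene was called, Lgals1 (background 4.22%), and in siBard1 2 were, Lgals1 and S100a6 (background 10.3%). All 6 fitted values were above 0 in siBrca1 and in siBard1, with medians of 0.59 and 0.50, but against nt and Mock together those of S100a10 were below 0 (-0.24 and -0.21), as was that of S100a4 in siBard1 (-0.06). The largest of the 6, for S100a11 (1.24 ± 0.63 and 1.22 ± 0.59), rested on 17 and 27 counts and was not called (adjusted p = 0.339 and 0.193).

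Between these siRNAs 1 difference was called of the 6 genes in siWdr5 against siBard1 (background 8.36%), and 0 in siWdr5 against siBrca1 (background 9.99%) and siBrca1 against siBard1 (background 0.863%). S100a6 was at 4160, 3184 and 4158 CPM in siWdr5 and 5318, 5706 and 5991 in siBard1, with no overlap (log2 fold change -0.57 ± 0.13, adjusted p = 0.00103), and the call was lost without replicate 2 or 3 (0.101 and 0.0780). Between siBrca1 (4277, 4012 and 4075 CPM) and siBard1 the difference was -0.47 ± 0.14 (adjusted p = 0.0644). This was the 1 gene of that pair at an unadjusted p under 0.05, and DESeq2 called it (adjusted p = 0.0101). In siWdr5 against siBrca1 Lgals1 alone was at an unadjusted p under 0.05 (0.0308), and DESeq2 called 0.

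Genes of partners and ligands were counted in the same 3 comparisons with nt, in which 27.2% (siWdr5), 4.22% (siBrca1) and 10.3% (siBard1) of all tested genes were called. Of the 8 S100 partners and targets that passed the filter, 2 rose and 2 fell in siWdr5 (median log2 fold change 0.36, beside 0.00 over all tested genes). Ahnak, a scaffold that S100a10 binds with annexin A2, and Myh9 rose (1.95 and 1.11), and the S100a6 binders Sugt1 and Cacybp fell (-1.29 and -1.10), to 113 ± 39.3 and 196 ± 24.0 CPM, levels nearer those of untransfected Day06 cells than those of nt. In siBrca1 Ahnak rose (1.26, adjusted p = 0.0215) and in siBard1 none was called. Of the 10 galectin ligands and partners that passed, 3 rose and 0 fell in siWdr5, a share near that over all tested genes, with a median of 0.78 (Pdcd6ip 2.30, Cd44 1.04 and Lamp2 0.68), 2 rose in siBard1 (Cd47 1.01 and Cd44 0.85) and none was called in siBrca1. Of the 11 fibroblast markers that passed, 8 rose in siWdr5, 5 in siBard1 and 2 in siBrca1, where Dcn fell. Col1a1, a collagen chain, rose in all 3 (2.67 in siWdr5, 1.30 in siBrca1 and 1.18 in siBard1). Summed fibroblast markers were at 5970 to 6569 CPM in siWdr5 and 3645 to 4854 in siBard1, above the 2189 to 3131 of nt, and at 3100 to 4257 in siBrca1, overlapping nt. Summed epithelial markers were at 26.4 to 56.9, 0 to 69.4 and 20.7 to 137 CPM in siWdr5, siBard1 and siBrca1, against 131 to 150 in nt, which the siBrca1 range again overlapped. They rested on 11, 14 and 14 counts against 34 in nt, and no epithelial marker was called in these siRNAs. In Mock the fibroblast and epithelial sums were at 2597 to 4266 and 49.6 to 206 CPM. Mock overlapped siBard1 and siBrca1 in both sums, and siWdr5 in the epithelial sum only. Lgals1 in siWdr5 against siBard1, -0.43 ± 0.18, was not called (adjusted p = 0.136). The part of these marker genes in the siRNA differences was not tested.

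More than 1 gene was called also in siPou5f1, against the pluripotency factor OCT4, and in siNcor1. In siPou5f1 3 of the 6 genes were called, S100a10 higher and S100a6 and Lgals3 lower (background 5.77%), and in siNcor1 2 were, S100a10 higher and S100a6 lower (background 4.45%). S100a4 was at 135, 142 and 203 CPM in siPou5f1, below the nt libraries (-0.67 ± 0.35, adjusted p = 0.301), and was called against nt and Mock together (-1.21, adjusted p = 0.00344). In siPou5f1 3 of the 11 fibroblast markers fell and none rose, and no S100 partner or galectin ligand was called. In siNcor1 the S100a6 binder Cacybp rose (log2 fold change 0.76, adjusted p = 0.0295) and no other gene of the partner, ligand and fibroblast lists was called.

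**Figure D5:**
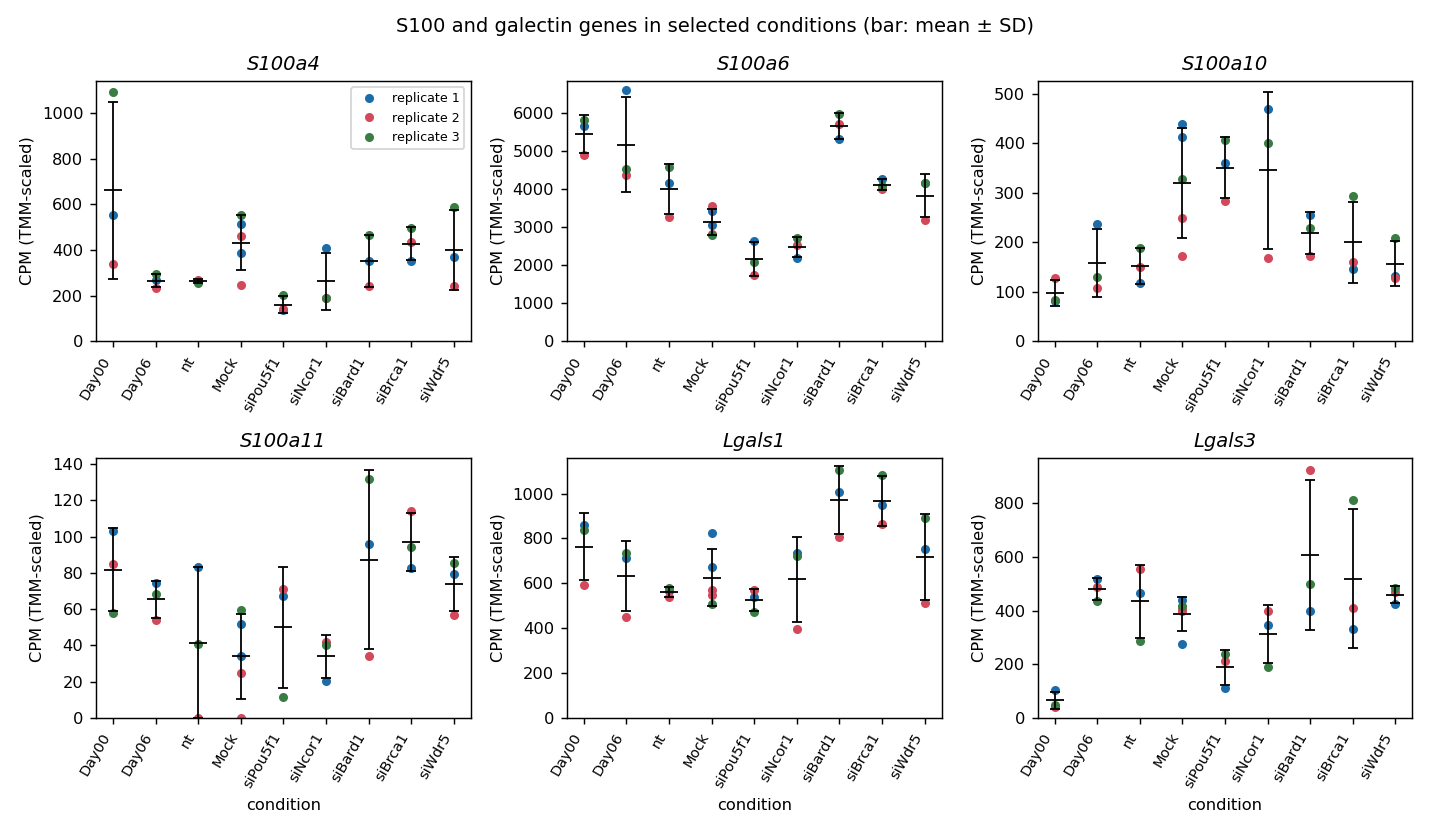
Level of each gene in CPM (y axes, from 0) in Day00, Day06, the controls nt and Mock and 5 siRNAs (x axes). Points are libraries coloured by replicate and bars are the mean ±1 SD. In siPou5f1, S100a6 (2160 CPM) and Lgals3 (187 CPM) lie below nt (4007 and 435 CPM) while S100a10 (350 CPM) lies above it (151 CPM).

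Ordered by mean over the 42 conditions, S100a4 was highest at Day00, followed by Day03 and Day02, and lowest in siMtf1, siPou5f1 and siPrkdc. S100a6 was highest in siBard1, Day01 and Day00 and lowest in siPou5f1, siApex1 and the libraries labelled siHdac1. S100a10 was highest in siPou5f1, siTdrd3 and siNcor1 and lowest at Day01, Day03 and Day00. S100a11 was highest in siBrca1, with siBard1 among the 3 highest, and lowest in siEny2, the libraries labelled siHdac1 and siApex1. Lgals1 was highest in siBard1, siBrca1 and siBrd8 and lowest in the libraries labelled siHdac1, siPrkdc and siPou5f1. Lgals3 was highest in siEp300, siBrd8 and siBard1 and lowest at Day00, siPou5f1 and siPrkdc. Neighbours in these orders overlapped: of 41 neighbouring pairs 0 had ranges that did not overlap for 5 of the genes, and 2 for Lgals3.

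The genes shared these patterns to different degrees. Over the 35 transfected conditions (log2 CPM with the replicate removed, means per condition) the correlation was 0.76 between S100a6 and Lgals3, 0.65 between S100a4 and Lgals1 and 0.58 between the neighbours S100a4 and S100a6, but -0.03 between S100a6 and S100a10 and 0.10 between the neighbours S100a10 and S100a11. Over the 7 days those values were -0.49, 0.26, -0.34, -0.40 and -0.15. Within conditions, the deviations of the 127 libraries correlated by -0.06 to 0.21 between genes. All values come from the same libraries and depth scaling.

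Among 2812 genes with a mean of at least 50 CPM, the patterns most like each gene over the 42 conditions were found by Pearson correlation. For S100a4 they were Gsn (0.76), an actin-severing protein, Ccl7 (0.71) and Twist2 (0.71), a mesenchymal transcription factor. For S100a6 they were Anxa3 (0.74), an annexin, Rnf11 (0.71) and Timp1 (0.69), a metalloproteinase inhibitor. For S100a10 they were the processed pseudogenes Gm13408 (0.89) and Gm15427 (0.87), with 0.82 and 0.78 over the transfected conditions alone. S100a11 was most like Lmna (0.61), Aes (0.61) and Bcap31 (0.60), Lgals1 most like Prrx2 (0.57), Sgpl1 (0.57) and Ltbp1 (0.56), and Lgals3 most like Perp (0.70), Ly6a (0.65) and Slc7a11 (0.64). Slc7a11, the cystine transporter, followed Lgals3 over the 7 days (0.99) and much less over the transfected conditions (0.16).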

How the data were processed

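Bulk CEL-Seq2 libraries of mouse embryonic fibroblasts were analysed from 2 tables. The authors made the deposited counts, whole UMI counts per gene, by mapping to mm10 with Bowtie2 and a CEL-Seq pipeline. The authors also deposited log2 values of 10568 genes, corrected by them for batch. GEO's labels give the replicate, and conditions come from the column names. Of 129 libraries with counts, 127 present in both tables were used (29656 to 235292 counts), and 2 that the authors left out of the log2 table were used in an alternative only. Replicate 3 has 2 Mock count columns and 1 Mock log2 column, and the count column it followed was kept (correlation 0.948 against 0.0303).

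Counts were fitted with edgeR 4.0.16 in R 4.3.3 (quasi-likelihood, TMM, filterByExpr, condition plus replicate as a block, 83 residual degrees of freedom), with Benjamini-Hochberg adjustment within each comparison over 3013 genes and a threshold of 0.05. Fold changes have edgeR standard errors. S100a11 failed the filter and was tested in a second fit of 3078 genes. CPM used TMM-scaled totals. Same-numbered libraries of different conditions deviated together only weakly (median correlation 0.0596, beside -0.0366 for different numbers). The median was 0.0339, 0.0501 and 0.138 within replicates 1, 2 and 3. The labels give no more than this replicate number. Intervals on counts cover counting error only. The code was tested on simulated data. Alternatives were DESeq2 1.42.0, RLE size factors, library totals, no filter, no block, all libraries, limma 3.58.1 on the log2 values, each replicate left out, nt and Mock together as control, and adjustment over all siRNAs at once. Summing the Mock libraries of a replicate was added after the data were seen.

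The 6 genes and all lists were chosen with earlier results of these data known. Named beside them are the called genes of each list, at most 4 per comparison in order of absolute log2 fold change, and for each gene the 3 with the most similar pattern. One of these genes and 1 siRNA condition are not reported here by name, and the condition is left out of the plots but kept in all fits and counts. Positions are from GENCODE vM21, promoters from RefSeq, and near-identical copies from BLAST+ 2.17.0. Protein sequences were not used here.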

Additional observations from a re-analysis of the deposited data

Results flagged for a closer look

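Lgals3 in Mock was at 439, 404, 397 and 418 CPM in 4 of the 5 libraries and at 275 CPM, from 8 counts, in the other, which was 1 of the 2 Mock libraries of replicate 1 (the other of which was at 439 CPM). Its gap to the next value was wide for a group of 5. The Mock group was the only one with 4 or more libraries, so 6 sets of values were checked, 1 per gene, with each library as a separate value although the 5 come from 3 replicates, and chance marks about 1 in 20 groups. S100a6 differed between siWdr5 and siBard1, both set against the same nt libraries, by -0.57 on the log2 scale in the test of the difference itself.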

How the results depend on the processing

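Of 35 called differences, 7 were called in each alternative run: Lgals3 against Day00 on the 6 later days and S100a6 at Day03. Depth limited S100a11 most, with a median of 3 counts per library. The cause of the changes below was not tested. Counts of called genes are given beside the reported count in parentheses. At Day06 against Day00 (2) limma on the deposited log2 values gave 1, and leaving out a replicate 1 to 2. Over the days against Day00 (13) limma gave 8 and leaving out a replicate 9 to 12. Between neighbouring days (7) no filter gave 4, the fit with no replicate block 2, limma 1, and leaving out a replicate 3 to 4. In the test across days (4) limma gave 2, and S100a10 was lost in every alternative but the one with all libraries. For nt against Day06 (1) no filter, no block and limma gave 0, library totals 2, and leaving out a replicate 0 to 1. For Mock against nt (0) no filter and RLE gave 1 and DESeq2 2. Over the siRNAs (15) no filter and no replicate block gave 7 each, DESeq2 23, limma 0, and leaving out a replicate 6 to 9. For siWdr5 (0) DESeq2, RLE and library totals gave 2, all libraries 1, and leaving out a replicate 0 to 1. For siBrca1 (1) no filter, no block, limma and leaving out any replicate gave 0. For siBard1 (2) no filter and limma gave 0 and leaving out a replicate 1 to 2. For siWdr5 against siBard1 (1) limma gave 0 and leaving out a replicate 0 to 1, and for siBrca1 against siBard1 (0) no filter, DESeq2 and RLE gave 1.

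Differences that changed sign were all uncalled as reported. With no filter they included S100a6 at Day06 (0.05), Lgals1 in Mock (-0.03) and S100a4 in nt against Day06 (0.04). They also included S100a6 in siBrca1 (-0.08), S100a11 in siPou5f1 (-0.08) and S100a10 in siWdr5 (-0.01). In siBrca1 against siBard1 S100a11 was -0.10 with no filter and -0.01 with DESeq2 and with RLE. For that pair library totals gave Lgals1 at 0.07, Lgals3 at 0.04 and S100a10 at 0.03, and limma gave Lgals1 at 0.15. Leaving out a replicate also changed the sign of S100a11, Lgals1, Lgals3 and S100a10 in that pair. S100a10 in nt against Day06 was -0.11 with DESeq2, -0.09 with RLE, -0.31 with library totals and -0.30 with limma. S100a6 in siWdr5 was 0.11 with DESeq2 and with RLE, 0.07 with library totals and 0.15 against nt and Mock together. That control also gave S100a10 at -0.63 in siWdr5, -0.24 in siBrca1 and -0.21 in siBard1, and S100a4 at -0.06 in siBard1. S100a11 in Mock was 0.07 with all libraries and 0.04 with limma, which gave Lgals1 in siPou5f1 at 0.03. With 1 replicate left out in turn, the values of S100a11 were -0.61 to 0.02 at Day06, -0.45 to 0.49 in Mock and -0.83 to 0.80 in siPou5f1, those of S100a6 -0.22 to 0.01 at Day06, -0.11 to 0.18 in siBrca1 and -0.14 to 0.05 in siWdr5, those of Lgals3 -0.40 to 0.13 in Mock, -0.44 to 0.76 in siBrca1 and -0.13 to 0.29 in siWdr5, those of Lgals1 -0.20 to 0.02 in siPou5f1, and in nt against Day06 those of S100a10 were -0.41 to 0.56 and those of S100a4 -0.06 to 0.09.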
